A study of Mus musculus with 16 samples.

Results

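Transcripts of the corneal epithelium and of the corneal stroma were followed in macrophages sorted from the mouse cornea and in 3 other sorted phagocyte populations. The set holds 36 genes of the 45664 gene entries counted: 17 epithelial genes, from Krt5 to Cldn4, and 19 stromal genes, from Dcn to Aldh1a1. They were chosen by name as a list of corneal tissue genes, and each symbol was found in the count table. Of the 36 genes, 32 passed the filter on low counts and were tested, all 19 stromal genes and 13 epithelial genes. Trp63, Epcam, Cdh1 and Dsg2 were counted but not tested.

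The cornea is a stratified epithelium over a collagen stroma. Its epithelial cells make keratin filaments, anchored at desmosomes and covered by tight junctions. Krt12 is the keratin used to identify corneal epithelium, and in the mouse Krt5 is its partner. The stroma is laid down by keratocytes, which secrete fibrillar collagens and the small leucine-rich proteoglycans (decorin, lumican, keratocan, osteoglycin, fibromodulin) that space the fibrils and keep the tissue clear. Macrophages lie among the stromal fibres and below the epithelium.

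Bulk RNA was sequenced from C57BL/6 mice aged 8 to 10 weeks, with 4 libraries in each of 4 populations, and the labels name no treatment or transgene. The cornea population was gated on CD45, CD11b, CD64 and F4/80 (cornea macrophages), both microglia, of the retina and of the brain, on CD45 and CD11b alone, and the bone marrow monocytes on CD45, CD11b, CD115 and Ly6C, each gate taking the positive cells. Each cornea and each retina library came from 10 pooled mice, and the pool size of the other libraries is not clear, because the descriptions of all 8 brain and marrow libraries name retinal microglia while their titles and source names do not. The study sought the mRNA signatures of these populations. The cornea was digested with warm collagenase D and the retina was dissociated mechanically in the cold, so tissue and preparation cannot be told apart.

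Libraries held 8.68 to 21.76 M counts (M, mega-counts), and cornea libraries 1 to 4 held 12.57, 17.78, 18.47 and 21.76 M. Levels are given as CPM, counts divided by the TMM-scaled library size in mega-counts. Levels of different genes are compared only as RPKM, which is CPM per kilobase of the gene length in the deposited table. Cornea library 1 stands apart in its label. Alone among the cornea titles, its title carries a further number after the letters for cornea, whose meaning is not given. It also lacks a letter b that the other 3 cornea titles carry. Cornea library 1 shares its title number with cornea library 2, and whether these were separate samples is not given. The same holds in the retina, where libraries 1 and 2 share a title number, as do libraries 3 and 4, and the titles of libraries 1 and 3 lack the letter b. Per the column headers, cornea libraries 1 to 3 and the whole retina group ran in lane 2, whereas cornea library 4 and the whole brain group ran in lane 3. Genes of the sort were present in all 4 cornea libraries, with Adgre1, which encodes F4/80, at 2523, 2358, 2592 and 2571 CPM. Ly6c2, the gene of the marrow sort marker, was at 2460.3 CPM in the marrow and at most 0.614 CPM in a cornea library.

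Promoter sequences of 4 genes are shown because their transcripts carry the patterns described in the paragraphs that follow. Krt12 followed the epithelial class, Kera followed the stromal class, Jup belongs to the epithelial list but was level across cornea libraries, and Col6a3 was also present in brain microglia. Each line gives the 250 bases before the RefSeq start of transcription (build GRCm38.p6), 5′ to 3′ on the strand of the gene, with matches to any of 3 searched motifs in capitals. The windows lie at chr11:99422260-99422509 (minus strand, Krt12), chr11:100397791-100398040 (minus strand, Jup), chr10:97606955-97607204 (plus strand, Kera) and chr1:90843972-90844221 (minus strand, Col6a3). GENCODE starts Kera further upstream, so that by its annotation the Kera window lies inside the gene.
Krt12: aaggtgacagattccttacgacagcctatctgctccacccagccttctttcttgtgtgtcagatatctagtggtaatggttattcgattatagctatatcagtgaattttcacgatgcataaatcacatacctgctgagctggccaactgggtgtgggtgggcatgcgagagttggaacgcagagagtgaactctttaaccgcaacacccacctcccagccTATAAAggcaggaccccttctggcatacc
Jup: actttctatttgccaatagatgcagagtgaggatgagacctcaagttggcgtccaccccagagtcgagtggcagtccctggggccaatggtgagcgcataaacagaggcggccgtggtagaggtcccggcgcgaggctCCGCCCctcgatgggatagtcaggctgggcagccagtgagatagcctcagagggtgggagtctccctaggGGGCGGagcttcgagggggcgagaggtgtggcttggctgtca
Kera: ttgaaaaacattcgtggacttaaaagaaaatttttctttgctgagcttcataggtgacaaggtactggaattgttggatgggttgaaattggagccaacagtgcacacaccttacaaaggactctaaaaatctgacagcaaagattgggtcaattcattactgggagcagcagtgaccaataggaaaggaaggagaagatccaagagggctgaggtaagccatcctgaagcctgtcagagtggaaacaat
Col6a3: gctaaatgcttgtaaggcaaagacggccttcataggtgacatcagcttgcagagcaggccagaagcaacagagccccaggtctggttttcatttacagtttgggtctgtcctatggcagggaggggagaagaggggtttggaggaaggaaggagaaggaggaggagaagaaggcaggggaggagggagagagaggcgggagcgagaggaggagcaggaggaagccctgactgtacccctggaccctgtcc
The capitals are a TATA box (TATAAA), whose first base lies at -29 from the Krt12 start, and GC boxes (GGGCGG, written CCGCCC where it lies on the other strand) at -112 and -42 from the Jup start. The windows of Kera and Col6a3 held none of the motifs. Bases G and C made up 62.0% of the Jup window and 42.4% of the Kera window.

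RefSeq promoters, from 250 bases before to 50 after the start, were matched for 22 of the 36 genes by symbol. The TATA letters stood, on either strand, in 1 of 9 epithelial genes (Krt12), in 3 of 13 stromal genes (Col3a1, Ogn and Thbs2) and in 13.6% of all 32851 promoters. The AP-1 letters (TGANTCA) stood in 1 epithelial gene (Cldn4), in 2 stromal genes (Aldh1a1 and Col6a1) and in 7.81% of all promoters. The GC box stood in 4 epithelial genes (Cldn4, Dsp, Epcam and Jup), in 4 stromal genes (Col1a2, Col5a1, Col6a2 and Fbln1) and in 35.7% of all promoters. These matches describe the letters of the windows, with no test.

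Both classes were present in every cornea library, but in different proportions. Summed over the class, epithelial genes reached 972, 258, 435 and 151 RPKM in cornea libraries 1 to 4, and stromal genes reached 582, 610, 1067 and 960 RPKM. Epithelial genes were thus above stromal genes in cornea library 1 and below them in the other 3. The ratio of the epithelial to the stromal sum was 1.67, 0.422, 0.407 and 0.157, a 10.6-fold range between libraries sorted with the same markers. The epithelial sum ranged 6.44-fold and the stromal sum 1.83-fold. Within lane 2 the ratio still ran from 0.407 to 1.67, and lane 3 held a single cornea library. The mean ratio was 0.664 over 4 cornea libraries and 0.329 without cornea library 1.

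**Figure D1:**
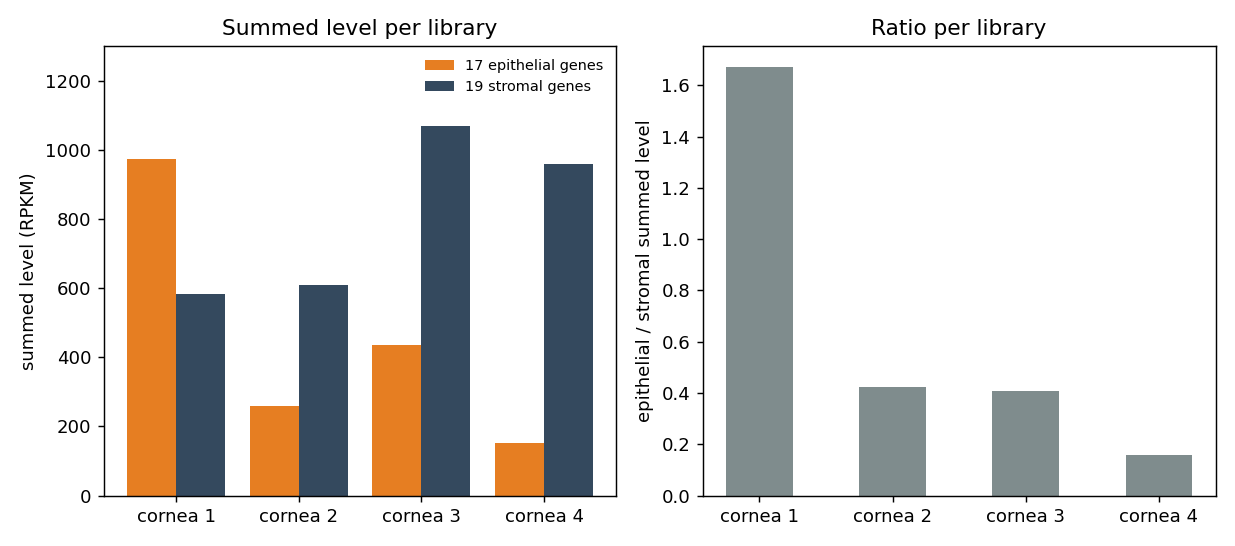
Left: summed level in RPKM (vertical axis) of the 17 epithelial genes (orange bars) and the 19 stromal genes (dark bars) in each of the 4 cornea libraries (horizontal axis). Right: the ratio of the epithelial to the stromal sum in the same libraries, which is 1.67 in cornea library 1 and 0.157 in cornea library 4.

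Outside the cornea both sums were small. The epithelial sum was 454 ± 365 RPKM in the cornea (SD, n = 4), 7.56 ± 0.568 in the retina, 13.5 ± 2.84 in the brain and 1.81 ± 0.425 in the marrow. The stromal sum was 805 ± 245 RPKM in the cornea, 0.547 ± 0.337 in the retina, 2.94 ± 0.706 in the brain and 0.539 ± 0.466 in the marrow. The lowest cornea library lay above every other library in both sums. All 36 genes together took 0.167% to 0.301% of the counts of a cornea library and at most 0.0118% of the counts of a library outside the cornea. In bulk RNA, fewer cells of a type and less RNA per cell cannot be told apart.

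**Figure D2:**
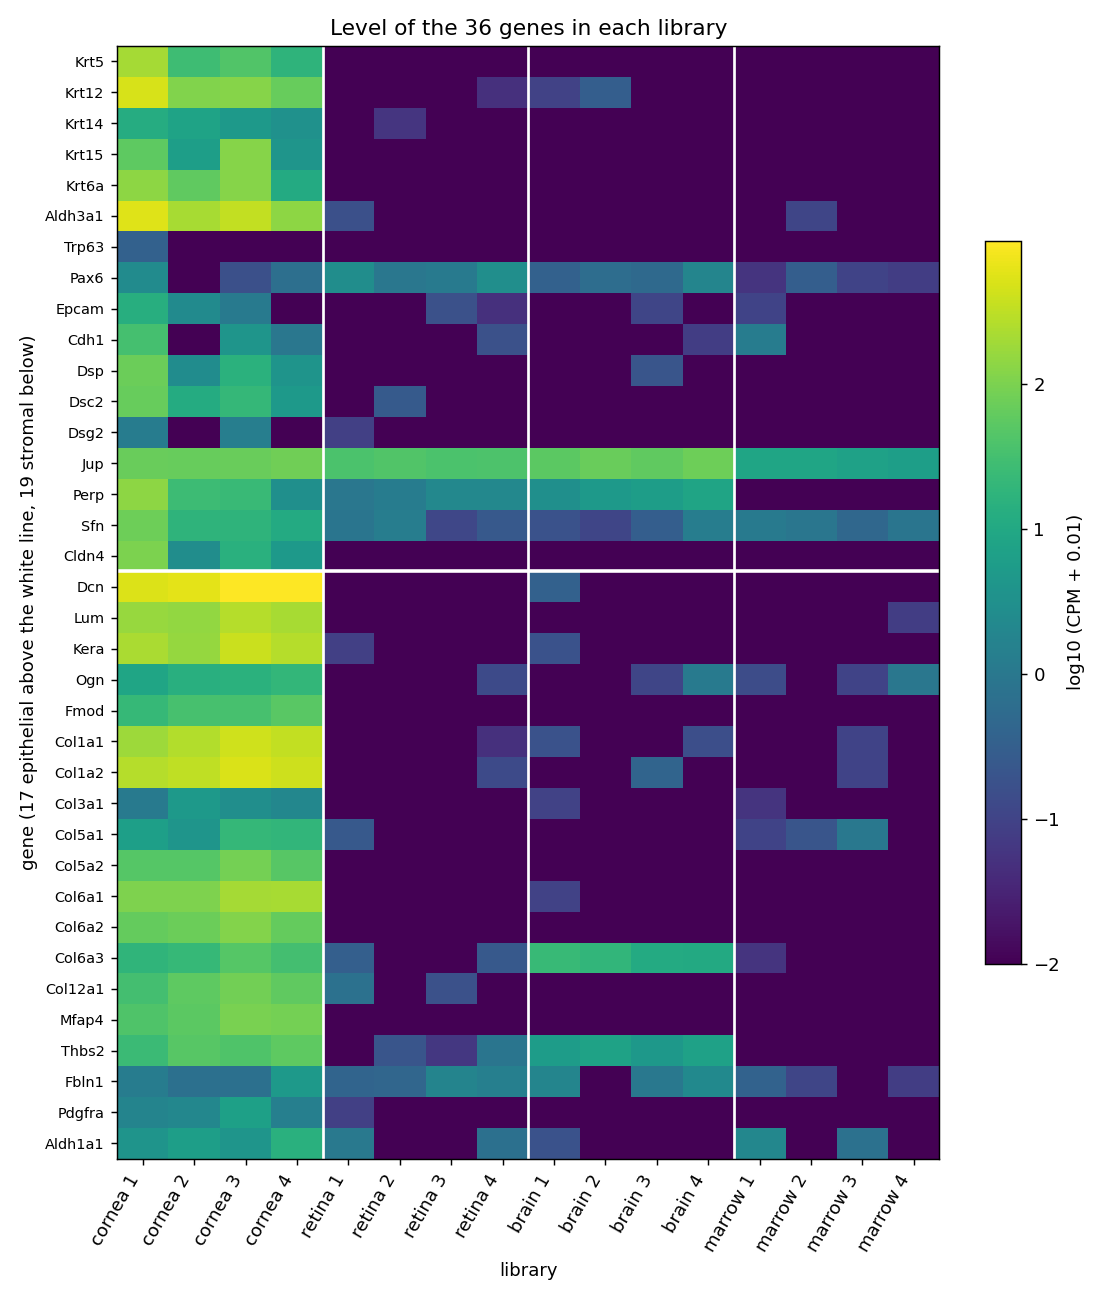
Level of each of the 36 genes (rows, epithelial above the white line and stromal below it) in each of the 16 libraries (columns, grouped by population), as log10 of CPM + 0.01 (colour). The 4 cornea columns are bright for most genes, and rows with colour in other populations include Jup, Perp, Pax6, Sfn, Col6a3, Thbs2 and Fbln1.

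Against retinal microglia, 30 of the 32 tested genes were higher in the cornea, 12 epithelial and 18 stromal, where 30.9% of all tested genes were higher (edgeR's quasi-likelihood test, Benjamini-Hochberg adjusted p under 0.05). Against brain microglia 28 were higher, 11 epithelial and 17 stromal, beside 33.8% of all tested genes. Against bone marrow monocytes all 32 were higher, beside 32.2% of all tested genes. None was lower in the cornea, beside 35.1% (retina), 33.1% (brain) and 31.1% (marrow) of all tested genes. These counts are no independent support, because most of these genes have few counts or none outside the cornea and passed the filter through the cornea libraries. The 3 comparisons also share the same 4 cornea libraries. The genes that did not pass were Pax6 and Fbln1 against the retina, and Pax6, Fbln1, Jup and Col6a3 against the brain.

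Libraries did not overlap for most of these genes. All 4 cornea libraries lay above all 4 retina libraries for 30 of the 32 tested genes (28.5% of all tested genes), above all 4 brain libraries for 27 (31.7%), and above all 4 marrow libraries for 31 (28.8%). The median log2 difference of the tested genes was 11.43 for epithelial and 12.02 for stromal genes against the retina, beside -0.12 for all tested genes. It was 10.97 and 11.92 against the brain, and 11.80 and 12.70 against the marrow. Fitted differences of genes at 0 in a population depend on the prior of the fit and are no bound, so folds for such genes are given from counts.

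Among the keratins, Krt12, the type I keratin of corneal epithelium, stood at 482, 111, 119 and 68.3 CPM in cornea libraries 1 to 4. Its type II partner Krt5 stood at 212, 27.9, 44.0 and 17.4 CPM. Both were highest in cornea library 1 and lowest in cornea library 4. Krt12 had 1 count over the 4 retina libraries, 4 over the brain and 0 over the marrow, where it was at least 3191-fold higher in the cornea taking 3 counts over the marrow libraries as its floor. Krt5 had no count in the 12 libraries outside the cornea, which puts the cornea at least 945-fold above the brain, at least 1192-fold above the marrow and at least 1595-fold above the retina. The exons of Krt12 overlap an antisense gene in GENCODE, and the strand setting of the counting is not known here.

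The other keratins did not keep a fixed proportion to these. Krt15, a keratin of basal and limbal cells, stood at 57.2, 6.30, 120 and 3.91 CPM, highest in cornea library 3. Krt14, the basal partner of Krt5, stood at 12.2, 7.74, 4.69 and 3.32 CPM. Krt6a, which is known from wounded and fast-growing epithelium, stood at 138, 59.1, 124 and 11.3 CPM. Krt15 and Krt6a had no count outside the cornea, and Krt14 had 1 count, in the retina. All 3 were higher in the cornea in each comparison.

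Ratios between keratins, taken per length within a library, show the same. Krt5 to Krt12 was 0.373, 0.213, 0.312 and 0.216, a narrow range beside the 10.6-fold range of the class ratio. Krt15 to Krt5 was 0.334, 0.280, 3.39 and 0.278, so that cornea library 3 alone had more Krt15 than Krt5. Krt6a to Krt5 was 0.634, 2.06, 2.73 and 0.631, above 1 in cornea libraries 2 and 3. Krt14 to Krt5 was 0.0718, 0.346, 0.133 and 0.237, lowest in the library with the most Krt5. In GENCODE, 45.7% of the 50-base stretches of Krt6a exons recur in another gene, mostly Krt6b, and 13.9% of those of Krt14 recur, mostly in Krt16. Of the stretches of Krt5, 8.52% recur, mostly in Krt6a, and its exons also overlap an antisense gene. Values of Krt6a, Krt14 and, to a lesser share, Krt5 are therefore uncertain, as the handling of reads with several matches is not given. Krt6b, which is not in the set, had 0.454, 0.850, 1.14 and 3.26 times the level of Krt6a in the 4 cornea libraries.

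Aldh3a1, the aldehyde dehydrogenase that corneal epithelium accumulates as a crystallin, was the most abundant epithelial gene, with a mean of 162 ± 96.0 RPKM (SD, n = 4). It stood at 566, 214, 340 and 139 CPM in cornea libraries 1 to 4. Cornea library 1 was again the highest and cornea library 4 the lowest. Outside the cornea it had 2 counts in the retina, none in the brain and 1 in the marrow. By pooled counts scaled by library size, Aldh3a1 was 11056-fold above the retina in the cornea. The exact 95% interval was 3060 to 91305.5 and covers counting error only.

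The epithelial transcription factors were near the limit of detection. Trp63, the p63 factor of basal epithelial cells, had 3 counts in cornea library 1 and none in the other 15 libraries. Pax6, the eye field factor that corneal epithelium and retinal neurons share, stood at 2.49, 0, 0.154 and 0.663 CPM in the cornea. It stood at 2.84, 0.927, 1.08 and 2.89 CPM in the retina, at 0.342, 0.609, 0.495 and 1.88 CPM in the brain, and at 0.0451 to 0.299 CPM in the marrow. Pax6 was the single gene of the set with its highest mean outside the cornea. The difference from the retina did not pass the test (log2 difference -1.26 ± 0.93, SE, edgeR adjusted p = 0.240). It did without cornea library 1 (-2.76, edgeR adjusted p = 0.0239) and with limma (-2.36, adjusted p = 0.0224). Pax6 was higher in the cornea than in the marrow (2.71 ± 1.11, edgeR adjusted p = 0.0413), a call that ended without cornea library 1 (1.22, adjusted p = 0.335), without cornea library 4 (adjusted p = 0.0528) and without marrow library 1, 3 or 4 (adjusted p from 0.0883 to 0.113). It also ended with total counts (adjusted p = 0.106), with limma (0.316), without the filter (0.0546), with lane as a term (0.0740) and without the 3 libraries whose titles lack the letter b (0.371).

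Junction genes varied widely between cornea libraries. Dsp, the desmosomal plaque protein desmoplakin, stood at 75.2, 2.64, 15.2 and 3.85 CPM, and Dsc2, a desmosomal cadherin, at 66.4, 11.9, 21.5 and 4.98 CPM. Cldn4, a tight junction claudin, stood at 103, 2.81, 14.4 and 5.04 CPM, with no count outside the cornea. Perp, a tetraspan protein of desmosomes, stood at 140, 26.7, 24.4 and 2.99 CPM. For each of these 4 genes cornea library 1 stood far above the other 3. Sfn, the 14-3-3 protein stratifin, stood at 76.2, 17.3, 17.7 and 11.3 CPM, and its reads share stretches with the pseudogene-like entry Gm7850.

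The untested junction genes had few counts, and Epcam and Cdh1 were highest in cornea library 1 and Dsg2 in cornea library 3. Epcam, an epithelial surface adhesion protein, had 118, 29, 14 and 0 counts in cornea libraries 1 to 4. Cdh1, the adherens junction cadherin, had 297, 0, 51 and 14 counts. Dsg2, a desmosomal cadherin, had 11, 0, 18 and 0 counts. These genes lacked counts in 1 or 2 cornea libraries, where a count of 0 allows up to 3 counts, so they were not detected at that depth. Cdh1 also had 27 counts in marrow library 1 and none in the other marrow libraries. In a fit without the filter, Epcam (edgeR adjusted p = 0.000825), Cdh1 (0.000585) and Dsg2 (0.0429) were higher in the cornea than in the retina, and Trp63 did not pass (0.147). Over the retina libraries Epcam had 4 counts, Cdh1 4 and Dsg2 1, so these calls are no independent support.

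Jup, plakoglobin, which links cadherins to filaments and is also made outside epithelium, did not follow its class. It stood at 71.6, 69.0, 69.4 and 79.6 CPM in the cornea, at 37.0, 43.2, 37.0 and 39.3 CPM in the retina, at 55.1, 71.1, 59.5 and 76.3 CPM in the brain, and at 8.57, 8.76, 7.30 and 6.17 CPM in the marrow. Cornea and brain overlapped, and the retina lay below both. Its SD over cornea libraries was 0.10 on the log2 scale, against a median of 1.56 for the 13 tested epithelial genes. Jup was higher in the cornea than in the retina (log2 difference 0.89 ± 0.14, edgeR adjusted p = 3.56e-05) and than in the marrow (3.23 ± 0.16, adjusted p = 1.56e-11), and not called against the brain (0.14 ± 0.14, adjusted p = 0.378). Jup alone made up most of the epithelial sum of the retina and brain on the CPM scale, with means of 39.1 of 43.5 CPM and 65.5 of 72.5 CPM.

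The scaling matters for Jup. TMM factors were 0.661 to 0.705 in the cornea and 1.07 to 1.25 elsewhere, and with total counts in their place the median of all tested genes moved by -0.79 (retina), -0.67 (brain) and -0.67 (marrow) on the log2 scale. Calls of all genes then split into 2924 higher and 8488 lower in the cornea than in the retina, instead of 4862 and 5537. Jup was then not called against the retina (0.09, edgeR adjusted p = 0.572) and was called lower than in the brain (-0.53, adjusted p = 0.00404). Set against the moved median of all genes, Jup was again above the retina and near the brain. That repeats the TMM result, because TMM already centres most genes, and is no separate support. Genes with far larger differences, such as Dcn and Krt12, kept their direction.

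Among the stromal genes, the leucine-rich proteoglycans were the most abundant group, with a mean sum of 619 ± 185 RPKM by the deposited lengths (SD, n = 4). Dcn, decorin, stood at 538, 600, 973 and 979 CPM in cornea libraries 1 to 4, and at 371 ± 113 RPKM it was the highest gene of the set by the deposited lengths. The deposited length of Dcn is 2084 bases and that in GENCODE 5838, with which Dcn was at 132 ± 40.5 RPKM, below Aldh3a1 at 162 RPKM. Lum, lumican, stood at 167, 154, 278 and 215 CPM. Kera, keratocan, the keratan sulfate proteoglycan typical of cornea, stood at 223, 159, 390 and 273 CPM. All 3 were lower in cornea libraries 1 and 2 than in libraries 3 and 4. Dcn, Lum and Kera are neighbours on chromosome 10 in the order Dcn (97479609 to 97518143), Lum (97565128 to 97572703) and Kera (97606879 to 97613692), on the plus strand of GRCm38.

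Dcn, Lum and Kera kept closer proportions to each other across cornea libraries than Fmod and Ogn kept to Lum. Lum to Dcn, per length, was 0.312, 0.257, 0.287 and 0.221, and Kera to Lum was 1.42, 1.10, 1.49 and 1.35. Fmod, fibromodulin, stood at 22.1, 35.3, 35.2 and 52.7 CPM, and Ogn, osteoglycin, at 8.49, 14.2, 15.1 and 20.2 CPM. Both were lowest in cornea library 1 and highest in cornea library 4. Fmod to Lum per length was 0.0829, 0.144, 0.0795 and 0.154, and Ogn to Lum was 0.0415, 0.0755, 0.0445 and 0.0766, both higher in cornea libraries 2 and 4. Outside the cornea Fmod had no count, Lum had 1 (marrow), Kera had 1 (retina) and 2 (brain), and Dcn had 4, all in brain library 1. Dcn was at least 20595-fold above the retina and at least 15388-fold above the marrow in the cornea, with the same floor of 3 counts. Ogn had 16 counts in the brain and 17 in the marrow, mostly in the fourth library of each, and the titles of these libraries carry the same number range.

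Fibrillar collagens followed. Col1a1 stood at 179, 256, 430 and 347 CPM and Col1a2 at 278, 319, 510 and 403 CPM, the 2 chains of type I collagen, which is the main collagen of the stroma. Col5a2, of the type V collagen that sets fibril width, stood at 48.2, 48.3, 88.2 and 48.8 CPM. Col5a1 stood at 6.57, 4.00, 21.5 and 19.3 CPM, and Col12a1, a collagen on the fibril surface, at 32.0, 56.7, 86.2 and 58.5 CPM. Cornea library 3 was the highest for all 5. Col3a1, a collagen of loose connective tissue, was low at 1.13, 4.76, 2.92 and 2.06 CPM, and its ratio to Col1a1 per length was 0.00396 to 0.0124. Col1a1 to Col1a2 per length was 1.19, 1.48, 1.56 and 1.59.

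These collagens had few counts or none in the other populations. Col1a1 had 1, 4 and 1 counts in the retina, brain and marrow, and Col1a2 had 3, 4 and 1. Col5a2 had none in any of the 12 libraries, so it was at least 1510-fold above the retina, at least 895-fold above the brain and at least 1129-fold above the marrow. By pooled counts scaled by library size, Col1a1 was 24277-fold above the retina in the cornea. The exact 95% interval was 4357 to 958948 and covers counting error only. Col5a1 had 15 counts in the marrow, in 3 of its 4 libraries, and was still higher in the cornea (5.40 ± 1.05, edgeR adjusted p = 0.000447).

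Type VI collagen, a beaded filament built of 3 different chains, divided by chain outside the cornea. In the cornea, Col6a1 stood at 104, 107, 204 and 223 CPM, Col6a2 at 64.0, 73.8, 117 and 64.0 CPM, and Col6a3 at 18.7, 22.2, 46.4 and 31.6 CPM. All 3 chains were thus present in each cornea library. Per length, Col6a3 was 0.0655, 0.0763, 0.0831 and 0.0519 of Col6a1. In the brain, Col6a3 stood at 23.2, 19.3, 11.4 and 10.9 CPM, while Col6a1 had 1 count and Col6a2 none over the 4 brain libraries. Col6a3 had 10 counts in the retina and 1 in the marrow. Col6a3 was called neither higher nor lower in the cornea than in the brain (log2 difference 0.88 ± 0.43, edgeR adjusted p = 0.0801), while DESeq2, limma, the fit without the 3 libraries lacking the letter b and the fit of only the 8 libraries compared called it higher (adjusted p from 0.0135 to 0.0471).

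Thbs2, thrombospondin 2, a matrix glycoprotein that binds cells and limits vessel growth, also had counts in all 4 brain libraries. It stood at 25.7, 48.5, 42.2 and 56.9 CPM in the cornea, at 5.82, 7.51, 4.66 and 7.17 CPM in the brain and at 0, 0.195, 0.0538 and 0.844 CPM in the retina, with no count in the marrow. The 3 ranges did not overlap. The cornea was above the brain by 2.78 ± 0.50 on the log2 scale (edgeR adjusted p = 0.000208). Mfap4, a microfibril glycoprotein, stood at 40.9, 55.1, 97.7 and 87.4 CPM in the cornea and had no count elsewhere.

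The remaining stromal genes were low. Fbln1, fibulin 1 of elastic fibres and basement membranes, stood at 1.25, 0.681, 0.691 and 4.84 CPM in the cornea. All but cornea library 4 lay within the ranges of the retina (0.394 to 1.77) and the brain (0 to 2.32), and cornea library 4 lay above both. The Fbln1 mean in the cornea rests on cornea library 4. Without it the log2 difference turned from 0.87 to -0.26 against the retina and from 0.52 to -0.62 against the brain. The marrow call also ended (edgeR adjusted p = 0.00890 with cornea library 4 and 0.0579 without it). Pdgfra, the growth factor receptor used to mark fibroblasts, stood at 1.81, 2.04, 6.76 and 1.39 CPM in the cornea, with 1 count elsewhere. Aldh1a1, an aldehyde dehydrogenase that keratocytes of several species hold as a crystallin, stood at 3.85, 6.38, 4.07 and 14.8 CPM. Marrow library 1 had 46 counts of Aldh1a1 and marrow library 3 had 8. The call of Aldh1a1 against the marrow (3.28 ± 1.19, edgeR adjusted p = 0.0234) ended without cornea library 4 (0.0807), without marrow library 2 (0.0587), 3 (0.0554) or 4 (0.0524), and with total counts (0.0603).

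**Figure D3:**
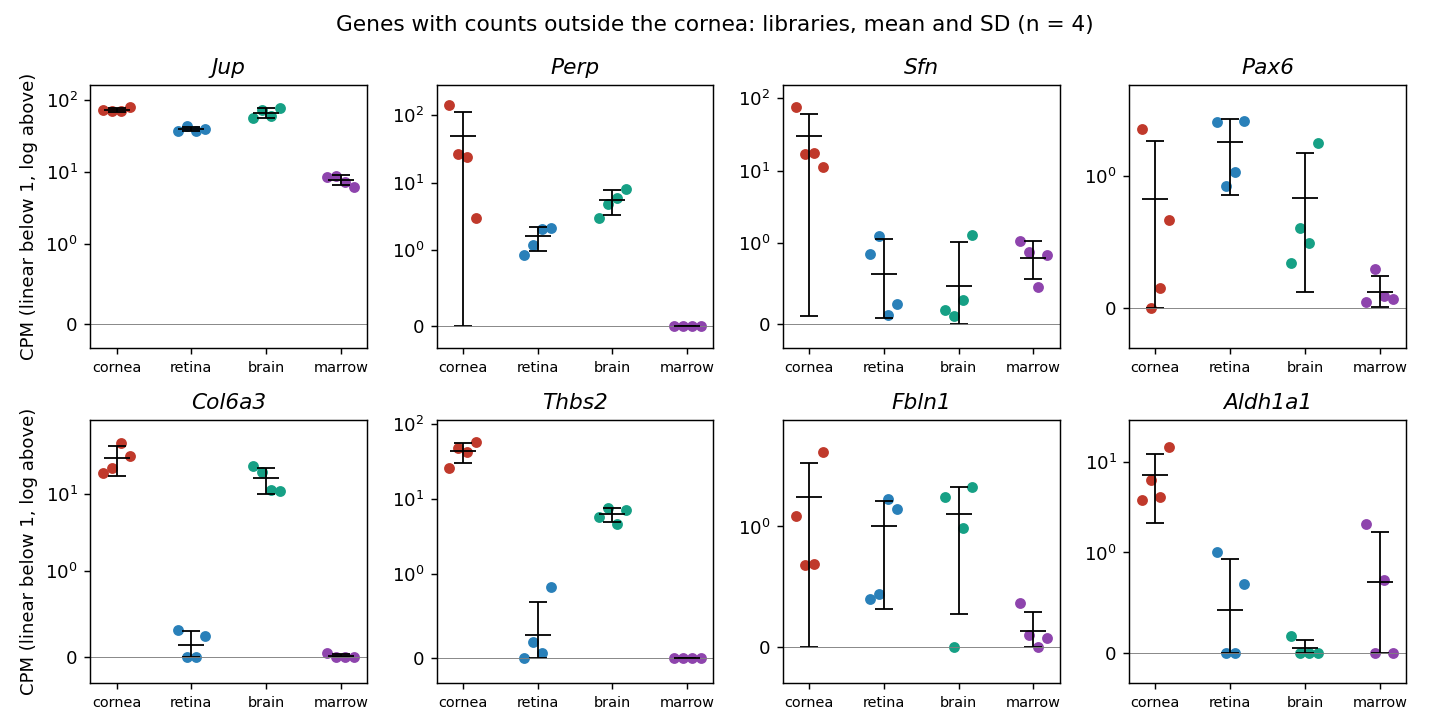
Level in CPM (vertical axis, linear below 1 and logarithmic above) of 8 genes of the set with counts outside the cornea, in the 4 libraries of each population (points), with the mean and SD (bars, drawn no lower than 0). Jup and Col6a3 overlap between cornea and brain, Perp overlaps through cornea library 4 at 2.99 CPM, and Thbs2 is separated in the cornea, brain and retina.

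The spread among cornea libraries differed between the classes. The median SD of log2 CPM (prior count of 2) over the 4 cornea libraries was 1.56 for the 13 tested epithelial genes, 0.55 for the 19 stromal genes and 0.38 for all 15754 tested genes. Krt15 (SD of 2.38), Cldn4 (2.26) and Perp (2.25) spread most among the tested epithelial genes, and Jup (0.10) least. Without cornea library 1 the epithelial median was 1.05 and the stromal 0.45. Within lane 2, without cornea library 4, they were 1.25 and 0.50.

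Which library was highest also differed. Of the 17 epithelial genes, 14 were highest in cornea library 1, with Krt15 and Dsg2 highest in library 3 and Jup in library 4. Of all tested genes, 22.2% were highest in cornea library 1. Of the 19 stromal genes, 11 were highest in cornea library 3, 7 in library 4 and 1 (Col3a1) in library 2, while 14 were lowest in library 1. Of all tested genes, 24.6% were highest in cornea library 3 and 19.9% lowest in library 1. Genes of 1 class share cells and libraries, so these counts are not independent of each other.

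**Figure D4:**
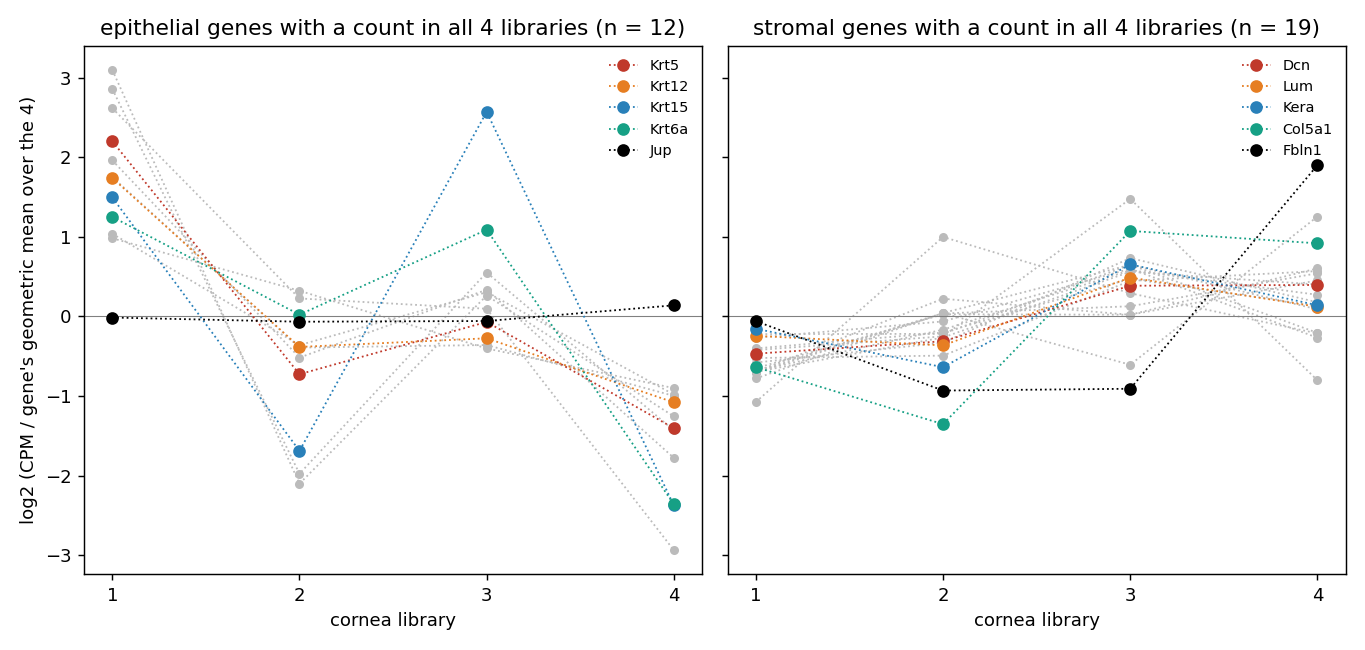
Log2 of CPM over the geometric mean of the same gene (vertical axis) in cornea libraries 1 to 4 (horizontal axis), for the 12 epithelial and 19 stromal genes with a count in all 4, 1 dotted line per gene, which joins values and marks no order. Most epithelial genes lie above 0 in library 1 and below it in library 4, Krt15 peaks in library 3, Jup stays near 0, and most stromal genes lie below 0 in library 1.

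Each gene was also set against both class sums, library by library. For the 12 epithelial genes with a count in all cornea libraries, the SD of the log2 ratio to the epithelial sum had a median of 0.81, and that to the stromal sum 1.84. For the 19 stromal genes the medians were 0.35 to the stromal sum and 1.54 to the epithelial sum. Each gene was left out of its own class sum for these ratios. Col1a2 (0.14 to the stromal sum), Dcn (0.14) and Lum (0.17) kept the closest proportion to their class, and Dsc2 (0.44 to the epithelial sum), Sfn (0.45), Aldh3a1 (0.46) and Krt12 (0.47) were closest among the epithelial genes.

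Most of these genes had few counts or none in both microglia and passed the filter through the cornea. Few of them could therefore differ between retina and brain. Of the 32 tested genes, none was higher in the retina and 3 were lower, beside 6.95% and 3.6% of all tested genes (edgeR's quasi-likelihood test). The 3 were Col6a3 (log2 difference -6.86 ± 0.63, edgeR adjusted p = 2.08e-06), Thbs2 (-4.29 ± 0.60, adjusted p = 0.000391) and Jup (-0.74 ± 0.14, adjusted p = 0.00248). In 4 of the 32 genes all retina libraries lay below all brain libraries (7.84% of all tested genes), these 3 and Perp. Perp stood at 0.945, 1.22, 2.10 and 2.17 CPM in the retina and 3.00, 4.87, 6.04 and 8.19 CPM in the brain, and was not called (-1.76, adjusted p = 0.204). The lanes separate retina from brain completely, so a lane term draws only on the cornea and marrow libraries, which lie in both lanes. With lane as a term the Thbs2 and Jup calls ended (edgeR adjusted p of 0.0859 and 0.0876). Perp was called lower in the retina with lane as a term (-6.11, edgeR adjusted p = 0.0215) and in the fit of only the 8 libraries compared (-1.75, adjusted p = 0.0203). That fit of 8 libraries tested 6 genes of the set and called 4 lower in the retina, beside 593 of all 13754 tested. Perp had no count in the marrow, so its lane term rests on cornea library 4 against the other cornea libraries.

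The Perp call against the brain depended on the lane term and on the tool. Cornea library 4, the cornea library in the lane of the brain libraries, had 45 Perp counts, 2.99 CPM. That was level with the lowest brain library at 3.00 CPM. The cornea was higher over all 4 libraries (3.12 ± 0.80, edgeR adjusted p = 0.00342). With lane as a term the difference was -0.85 (edgeR adjusted p = 0.422), and with limma it was 1.88 (adjusted p = 0.0994). The lane term for Perp rests on cornea library 4 alone, because Perp had no count in the marrow.

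Marrow library 1 shared lane 2 with cornea libraries 1 to 3. Over the set it had 244 counts in 5 of the epithelial genes and 61 in 6 of the stromal genes. These included 46 counts of Aldh1a1 and 27 of Cdh1. It had no count of Dcn, Lum, Kera, Col1a1 or Col1a2. Its epithelial sum was 2.32 RPKM and its stromal sum 1.17 RPKM, the highest of the 4 marrow libraries in both. Whether reads passed between libraries of a lane was not tested.

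Further genes of the same tissues were read from wider lists. Of 46 other epithelial genes, 23 were tested, and 16 were higher and 4 lower in the cornea than in the retina, 18 higher and 3 lower than in the brain, and 16 higher and 2 lower than in the marrow (edgeR). Of all tested genes, 30.9%, 33.8% and 32.2% were higher and 35.1%, 33.1% and 31.1% lower in these comparisons. Summed over the 46 genes, the level was 134 to 368 RPKM in the cornea, 145 to 161 in the retina, 132 to 167 in the brain and 86.6 to 106 in the marrow, so that the cornea overlapped both microglia. Psca, a surface protein of stratified epithelium, stood at 35.4, 13.6, 56.0 and 104 CPM. Among the genes lower in the cornea, Itga6, Spint1 and St14 were below both microglia, and Tkt and Pkp3 were below the marrow. Krt8, a keratin of simple epithelium, and Ly6d were the 2 genes of the list with no count in the cornea. Of the 23 tested genes, 13 were highest in cornea library 1 and 11 lowest in cornea library 4, beside 22.2% and 35.2% of all tested genes.

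Of 34 other keratocyte and stromal genes, 27 were tested, and 20 were higher and 4 lower in the cornea than in the retina, 22 higher and 4 lower than in the brain, and 22 higher and 4 lower than in the marrow (edgeR), beside the same shares of all tested genes (30.9%, 33.8% and 32.2% higher, 35.1%, 33.1% and 31.1% lower). Their summed level ran the other way, at 597 to 731 RPKM in the cornea, 899 to 1525 in the retina, 1428 to 1750.5 in the brain and 1048 to 1191 in the marrow. Bgn, the proteoglycan biglycan, stood at 101, 105, 170 and 132 CPM with 0 in the retina and brain, and Angptl7, a secreted factor of stroma, at 126, 108, 116 and 188 CPM. Of the 27, 15 were highest in cornea library 3 and 14 lowest in cornea library 1, beside 24.6% and 19.9% of all tested genes. Some stromal matrix genes had higher levels outside the cornea, and Sparc alone made up a mean of 1025 RPKM of the sum in the retina and 1452 RPKM in the brain, and Fn1 583 RPKM in the marrow. Sparc was at 256 to 533 CPM in the cornea and at mean levels of 3453 CPM in the retina and 4889 CPM in the brain, and Fn1 was at 60.03 to 100.2 CPM in the cornea and 6807 CPM in the marrow.

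Markers of other cells that the cornea or the sort could hold were read in the same libraries. Among the corneal endothelium genes, Slc4a11, a transporter of that layer, stood at 4.53, 9.27, 4.22 and 0 CPM. Col4a1 and Col4a2, basement membrane collagens of that list, stood at 2.79 to 12.1 and 11.1 to 19.4 CPM in the cornea, above all libraries of the other populations, and both were higher in each of the 3 comparisons (edgeR adjusted p of at most 0.00633). Genes of T and NK cells summed to at most 0.751 RPKM, with Cd3d, Cd3g, Nkg7, Trbc1 and Trbc2 at 0, and mast cell genes to at most 0.786 RPKM, with Cpa3, Mcpt4 and Tpsb2 at 0. The 1 tested gene of the mast cell list was called higher in the cornea than in both microglia and was not called against the marrow (edgeR). Vessel genes summed to 1.50 to 2.34 RPKM with Cldn5 at 0, below the brain (7.80 to 10.9). Neutrophil genes summed to 0.225 to 5.51 RPKM with Ly6g and Retnlg at 0, smooth muscle genes to 1.34 to 3.50 RPKM, and Schwann cell and nerve genes to at most 0.251 RPKM. Melanocyte genes summed to 12.3 to 24.5 RPKM in the cornea with Tyr and Tyrp1 at 0, above the retina (4.50 to 6.20), the brain (3.60 to 5.94) and the marrow (2.69 to 4.78). Mitf, a transcription factor of melanocytes and of some myeloid cells, made up most of that sum, with 74.9 to 147 CPM in the cornea, and was higher in each of the 3 comparisons (edgeR adjusted p of at most 9.19e-07), whereas Pmel, the other tested gene of the list, was called in none. Genes of retinal neurons and Mueller glia summed to 13.1 to 16.1 RPKM in the cornea and to 216 to 1544 RPKM in the retina. Genes of Langerhans and dendritic cells summed to 52.7 to 87.3 RPKM in the cornea. Their sums were 2.12 to 3.67 RPKM in the retina, 2.66 to 3.92 in the brain and 4.49 to 9.26 in the marrow. In cornea libraries 1 to 4, Cd207 stood at 57.6, 39.9, 57.8 and 66.3 CPM and Ccr7 at 8.49, 48.9, 4.53 and 57.8 CPM. Cd207 did not follow the order of the epithelial sum, and the part of these cells in the epithelial and stromal values was not tested.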

How the data were processed

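The deposited table gives, per the file headers, whole-number read counts for each gene in 16 libraries, not normalized, and a gene length column (other unit, bases). Per the submitters' processing notes, the authors used genome build GRCm38.p4 with CASAVA 1.8.2, limma, featureCounts and Subread. For strand, multi-mapping reads and annotation release the settings were not given in the sources used here, and the labels' extraction text describes another tissue, so the kit is uncertain. Samples were grouped by source name, and replicate numbers follow the order of deposition. The labels do not say that the libraries of a population came from separate samples beyond the pools of 10 mice, so p-values measure the spread between these libraries, which may be technical.

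Genes were filtered with filterByExpr (minimum count of 10), and all 16 libraries were fitted in edgeR 4.0.16 (R 4.3.3) with TMM factors and population as the only term. The 4 comparisons used its quasi-likelihood test, p-values were adjusted (Benjamini-Hochberg) over 15754 genes, and a gene was called under 0.05. The SE is the log2 difference over the square root of F. RPKM is CPM per kilobase of the deposited length. Folds against a population at 0 use a floor of 3 counts over the group, and floors cover counting error only. The edgeR steps were tested on simulated data. GENCODE vM21 (GRCm38) and RefSeq (GRCm38.p6) gave coordinates and promoters. Another 27 gene entries carry dates as names (at most 0.223% of a library). The members, lists and tests were chosen with earlier results of these data known. All 36 members are described, and named genes of the 13 other lists are the most abundant, the undetected and those that moved against their list; some of their values are not reported here. Alternatives were DESeq2 1.42.0, limma 3.58.1 with voom, total counts, no filter, a lane term, smaller fits and each library left out.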

Additional observations from a re-analysis of the deposited data

Results flagged for a closer look

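In 8 of 47 groups of 4 libraries looked at over the members and their class sums, the highest library stood apart from the other 3 by Dixon's criterion (its gap to the next library over the range of the group). Chance flags about 1 in 20 groups if values are normally distributed. The criterion was run on CPM and not on the log2 scale, so that rate may not hold here. Members of a class also share libraries. All 8 were cornea groups, as were most of the 47 groups, because few genes of the set reached 40 counts in another population. In cornea library 1, Krt5 was at 212 CPM (next library 44.0), Krt12 at 482 (119), Cdh1 at 33.6 (3.92), Sfn at 76.2 (17.7) and Cldn4 at 103 (14.4). In cornea library 3, Col5a2 was at 88.2 CPM (48.8) and Pdgfra at 6.76 (2.04). In cornea library 4, Fbln1 was at 4.84 CPM (1.25). The 5 epithelial genes share the library whose title lacks the letter b.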

How the results depend on the processing

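The counts of genes called kept within 1.5 times under every alternative run. Against the retina 30 genes were called, and 29 to 33 under the alternatives. Against the brain 28 were called (27 to 31), against the marrow 32 (30 to 34), and between retina and brain 3 (2 to 4). Without each library in turn these counts were 30 to 31, 28 to 29, 30 to 33 and 3.

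The epithelial sum in the cornea was 454 RPKM on average, 316 RPKM with total counts, 292 without Aldh3a1, 971 CPM without gene length, and 281 to 555 without each cornea library in turn. The stromal sum was 805 RPKM, 557 with total counts, 434 without Dcn, 528 with GENCODE lengths (chosen after seeing the data; Dcn is 2084 bases in the table and 5838 in GENCODE), 2495 CPM without gene length, and 717 to 879 without each cornea library. The mean ratio of the sums was 0.664, 0.999 with GENCODE lengths, and 0.329 to 0.833 without each cornea library, lowest without cornea library 1. With GENCODE lengths the ratios of the 4 libraries were 2.51, 0.642, 0.603 and 0.245, and the range between libraries was 9.56-fold to 13.0-fold under the alternatives. The median SD was 1.05 to 1.88 for epithelial, 0.45 to 0.63 for stromal and 0.29 to 0.37 for all genes without each cornea library.

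Of 1541 single-gene values over 103 results (genes with at least 40 counts, a limit chosen after seeing the data), 1497 kept direction and side, 20 lost a call, 8 gained one and 16 turned, as log2 differences. Against the retina, Fbln1 turned to -0.26 without cornea library 4 (-0.26 to 1.27 without each library in turn). Against the brain, Jup turned to -0.53 and Fbln1 to -0.14 with total counts, Fbln1 to -0.62 without cornea library 4, Perp to -0.85 and Pax6 to 0.16 with lane as a term, and Pax6 to 0.32, 0.26 and 0.73 without cornea library 2, cornea library 3 and brain library 4. Without each library in turn, Fbln1 ran from -0.62 to 0.95 and Pax6 from -1.58 to 0.73. Between retina and brain, Fbln1 turned to 0.25 (limma), 0.29 (lane) and 0.078 (without brain library 4; -0.76 to 0.078 without each library), and Sfn to -0.94 (lane), -0.44 (without retina library 2), -0.003 and -0.02 (without brain library 1 and 2; -0.44 to 1.63 without each library). The causes were not tested. No paired analysis was possible because replicate numbers follow the order of deposition. Titles of brain and marrow libraries 3 and 4 share number ranges, but these populations were not compared. Genes under about 3 counts in a library, such as Trp63, cannot be compared at this depth.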
